A study of Drosophila melanogaster with 2 samples.

Results

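*her* (hermaphrodite) and 3 genes for yolk proteins, namely *Yp1*, *Yp2* and *Yp3*, were examined for recovery of the tagged Her protein on chromatin. These 4 genes, of 13945 annotated protein-coding genes on the main chromosome arms, were chosen by name and not by a measured value. Earlier results of these data were known when they were chosen. Every deposited region with its summit inside one of the genes or within 10 kb of it was taken. The data came from chromatin immunoprecipitation followed by sequencing (ChIP-seq) of whole *Drosophila melanogaster* embryos, aged 0 to 24 hours, males and females together. All embryos were of 1 transgenic strain that stably expressed Her fused at its C-terminus to GFP, and the fusion was recovered with an antibody against GFP. Both biological replicates had this same genotype, age and antibody, so they formed 1 group with no contrast. An untagged strain was not analysed here. The sources used here do not give the promoter that drives the fusion, its place of insertion or the number of copies.

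Her is a zinc-finger protein that acts in somatic sex determination. Genetic work placed it among the controls of the yolk protein genes, partly apart from *doublesex* (*dsx*), the gene at the end of the pathway whose male and female proteins bind the same sites with opposite outcomes. *Yp1*, *Yp2* and *Yp3* encode the yolk proteins, which the fat body and the ovarian follicle cells of adult females make and which the oocyte takes up. The DNA between the divergent genes *Yp1* and *Yp2* holds the fat body enhancer, a textbook target of the Doublesex proteins. The embryos sampled here are a stage before the adult fat body and ovary form.

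Regions came from 4 lists. The thresholded list held 3930 peaks past a threshold on the irreproducible discovery rate (IDR), which rests on how alike peaks rank in both replicates. The pooled list and the list of each replicate held 30000 regions each, with background among them, so a region in those lists is a rank and not a binding call. The signal of a region is the authors' own value on a scale that is not stated, and it was compared only within a list. All 3930 thresholded peaks were in the pooled list, and 0 other pooled regions reached the lowest thresholded signal. The thresholded list was thus the strongest part of the pooled list, and a single peak in it need not rank alike in both replicates. In the thresholded list the lowest signal was 90.8 and the median 138. The median was 36.2 in the pooled list, 21.5 in the replicate 1 list and 19.6 in the replicate 2 list. The sources used here do not give the read depth.

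The promoters of the 4 genes are shown because the results turn on whether a region lies on them. Each runs from 250 bases before to 50 bases after the transcription start site (TSS), 5′ to 3′ on the strand of the gene, read from the RefSeq genome of Release 6 (dm6). Distances of a word are those of its first base along the gene. Capitals mark the words found among 10 that were searched on both strands, and an opposite-strand match appears as its reverse complement. Promoter words were TATCGATA, the DNA replication-related element (DRE), and GGTCACACT, the core of motif 1. The word TATAAA stood for the TATA box and the word TCAGTT for the initiator element. The word GAGAGAG stood for sites of the GAGA factor, which opens chromatin, and the word GATAAG for sites of the zinc-finger family of GATA factors. The word ACAATGT stood for the core of the Doublesex site. All words were searched letter for letter, so other spellings of the same kind of site were not found. The others were CAGCTG, an E-box on which helix-loop-helix proteins act, CAACAACAA for the AEF-1 repressor, and finally the word ATCGAT. This last word was added after the *her* sequence had been seen, and it overlaps the DRE. The coordinates are chr2L:16676935-16677234 on the plus strand for *her*, chrX:10053561-10053860 on the plus strand for *Yp1*, chrX:10052587-10052886 on the minus strand for *Yp2* and chrX:13759296-13759595 on the plus strand for *Yp3*.
her promoter: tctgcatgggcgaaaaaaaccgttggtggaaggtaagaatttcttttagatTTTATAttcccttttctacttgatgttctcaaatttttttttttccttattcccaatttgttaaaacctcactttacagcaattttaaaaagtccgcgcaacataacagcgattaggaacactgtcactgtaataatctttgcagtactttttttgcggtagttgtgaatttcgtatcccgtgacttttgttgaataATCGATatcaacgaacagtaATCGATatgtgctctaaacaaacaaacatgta
Yp1 promoter: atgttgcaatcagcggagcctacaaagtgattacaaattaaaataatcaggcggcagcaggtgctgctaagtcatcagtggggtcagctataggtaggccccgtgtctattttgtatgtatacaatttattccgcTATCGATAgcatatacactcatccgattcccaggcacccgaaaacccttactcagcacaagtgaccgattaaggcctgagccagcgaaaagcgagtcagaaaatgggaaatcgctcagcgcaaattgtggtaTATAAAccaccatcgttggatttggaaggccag
Yp2 promoter: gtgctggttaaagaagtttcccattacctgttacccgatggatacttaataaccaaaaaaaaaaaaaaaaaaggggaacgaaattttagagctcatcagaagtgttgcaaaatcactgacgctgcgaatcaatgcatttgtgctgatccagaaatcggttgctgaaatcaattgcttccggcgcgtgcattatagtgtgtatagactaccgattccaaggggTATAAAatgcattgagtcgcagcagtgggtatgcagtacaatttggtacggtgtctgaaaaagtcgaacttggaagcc
Yp3 promoter: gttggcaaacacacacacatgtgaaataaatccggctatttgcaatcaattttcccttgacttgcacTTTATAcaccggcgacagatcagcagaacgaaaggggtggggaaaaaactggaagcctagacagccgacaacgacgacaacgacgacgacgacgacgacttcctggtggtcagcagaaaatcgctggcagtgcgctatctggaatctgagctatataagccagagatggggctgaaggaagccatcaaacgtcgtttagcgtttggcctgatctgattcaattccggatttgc

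In the *her* promoter ATCGAT stood 2 bp before the TSS and again 18 bp after it, and 23.3% of all promoters of this length held the word. The *Yp1* promoter held the DRE word at 10053696, and 9.36% of promoters held it at some position. TATAAA is common, present in 45.8% of promoters, and stood 28 bp before the *Yp2* TSS. In *Yp1* it stood 17 bp after the first annotated TSS, 24 bp before the second one, which lies 41 bp downstream of the first. In *her* and *Yp3* the word occurred on the opposite strand, 199 bp and 183 bp before the TSS. The printed *Yp3* promoter also holds TATATAAG on the strand of the gene, nearer to the TSS, which the exact word does not match. A promoter without the word near its TSS is thus not shown to lack a TATA box. The GC content was 33.7% for *her*, 46.0% for *Yp1*, 41.3% for *Yp2* and 49.0% for *Yp3*, against a median of 38.0% over promoters, so *her* was the one member under the median. These matches describe the letters and are not sites of binding.

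The 1174 bp between *Yp2* and *Yp1* (chrX:10052637-10053810) held 1 exact match to ACAATGT, the word for the Doublesex core. Of windows of the same length upstream of genes, 18.0% held the word. Other spellings of the core were not searched, so the count is not a count of Doublesex sites. This match is shown because no region of the pooled list lies on the DNA between the 2 genes. The match is printed from chrX:10053549-10053573, plus strand, 5′ to 3′, with the core in capitals and 9 bases on either side.
Doublesex core between Yp2 and Yp1: tgcacaactACAATGTtgcaatcag
The same DNA held 7 matches to TATAAA, 1 to GATAAG and 1 to the DRE word, and none to the E-box, AEF-1, GAGA, initiator or motif 1 words. Windows of that length upstream of genes held TATAAA in 80.5%, GATAAG in 45.5% and the DRE word in 12.4%. The 947 bp between the neighbouring gene *Rtc1* and *Yp3* held no exact match to ACAATGT, a word present in 14.7% of windows of that length.

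Near the members lay 3 of the 3930 thresholded peaks, 20 of the 30000 pooled regions, 27 of the replicate 1 regions and 20 of the replicate 2 regions. Thresholded peaks lay near 2 of the 4 genes, *her* and *Yp3*, and 59.5% of all protein-coding genes had one by the same rule. Pooled regions lay near the same 2 genes, where the share of all genes was 85.9%. Replicate 1 listed regions near all 4 (87.8% of all genes) and replicate 2 near 2 (88.3%). The rule reaches most genes of this compact genome, so a region within 10 kb is the usual state. Of the 3 yolk protein genes, all on X, 1 had a thresholded peak and the same 1 had a pooled region, where 55.4% and 88.8% of the protein-coding genes on X did. With a narrower window of 1 kb around a TSS, *her* was the 1 of 4 members with a thresholded peak (23.3% of all genes) and also the 1 of 4 with a pooled region (62.1%).

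*her* (FBgn0001185) lies on 2L from 16677185 to 16679691 on the plus strand, 483 bp from *Trpgamma*, a TRP cation channel gene that points the other way. A thresholded peak covered its promoter, from 16676938 to 16677341, with the summit at 16677140, 45 bp before the *her* TSS and 439 bp before that of *Trpgamma*. The pooled signal there was 116 at rank 2686. In replicate 1 the signal was 69.0 at rank 2408, and in replicate 2 it was 48.1 at rank 3410. Both replicates thus placed the *her* promoter in the upper part of their lists, and their summits, at 16677120 and 16677143, were 23 bp apart. Among thresholded peaks this was a modest one, at 0.838 of the median signal. Of 2851 protein-coding genes with a thresholded summit at most 500 bp from a TSS, 2058 (72.2%) had a signal at least as high, and the median was 144. Since the strain carries added *her* sequence, DNA recovered from the native gene and from the transgene cannot be told apart.

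Inside the *her* gene itself little was listed. The pooled list held a region with its summit at 16677341, in the 5′ UTR 156 bp after the TSS, with a signal of 22.8 at rank 27440. Replicate 1 listed it at 13.5 (rank 27592), and replicate 2 had no region of its own there, its nearest summit being that of the promoter peak 198 bp away. In replicate 2 a region of signal 13.0 (rank 27437) lay in the *her* intron on the microRNA gene *mir-2497*. All of these stood near the bottom of their lists.

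Downstream of *her*, 362 bp from its end, begin *grp* (grapes), which encodes the checkpoint kinase Chk1, and *squ* (squash), a germline gene, which share a TSS at 16680054. The replicates did not place the signal at this start alike. Replicate 1 had a summit at 16680276, within the 5′ UTR of both genes, with a signal of 57.2 at rank 3308. Replicate 2 had one at 16680005, 49 bp before the shared TSS, with a signal of 45.4 at rank 3759. The summits lay 271 bp apart, beyond the 200 bp used to match regions, and the pooled list held both. Its region at 16680017 had a signal of 80.5 (rank 4703) and that at 16680273 had 63.9 (rank 6633). Neither was in the thresholded list, and both signals were under the lowest one there, 90.8. A weaker pooled region at 16680550, 20 bp before the second *squ* TSS, had a signal of 40.2 and was found at 31.0 in replicate 1 and 14.6 in replicate 2. In the *squ* coding exon a region at 16681084 had a pooled signal of 23.6 and was listed in replicate 2 only, at 23.7.

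The strongest region near any of the 4 genes lay in an intron of *grp*, 4719 bp past the end of *her* and 402 bp before a TSS of *CG31807*. This thresholded peak spanned 121 bp, from 16684392 to 16684512 with its summit at 16684410, one of 604 thresholded peaks narrower than 200 bp in a list with a median width of 404 bp. Its pooled signal was 219 at rank 845. Replicate 1 gave 111 at rank 973 and replicate 2 gave 110.1 at rank 753, so both replicates placed it well above the *her* promoter. The summit with 50 bases on either side, chr2L:16684360-16684460 on the plus strand, is printed 5′ to 3′ from the RefSeq dm6 genome to show what lay under the strongest signal.
grp intron summit: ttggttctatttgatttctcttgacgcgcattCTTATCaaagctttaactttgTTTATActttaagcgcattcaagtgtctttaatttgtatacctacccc
Capitals mark GATAAG and TATAAA, both on the opposite strand. GATAAG was present in 5.39% and TATAAA in 10.3% of the windows around all thresholded summits. A second pooled summit 199 bp away, at 16684609, had a signal of 79.4 (rank 4786), and replicate 2 listed it at 35.6. In replicate 1 its nearest summit was that of the stronger peak.

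The other 2 pooled regions near *her* also lay in *grp*. The region at 16685659, in a *grp* 5′ UTR 269 bp after an internal TSS, had a pooled signal of 79.9 (rank 4742), with 51.6 in replicate 1 and 27.1 in replicate 2. The region at 16686612, in a *grp* intron, had a pooled signal of 49.9, with 24.5 in replicate 1 and 24.1 in replicate 2. Of the 10 pooled regions near *her*, 1 lay upstream and 9 downstream of the TSS, and 8 had their nearest TSS in another gene. Their signals ran from 22.8 to 219 with a median of 71.6. Overlapping regions formed 6 separate stretches. At the edge of the window the region at 16686612 was the last inside, 6921 bp from the gene, and the first outside lay 10354 bp away at 16690045, in *grp*, with a signal of 90.4, just under the lowest thresholded signal. On the other side the next region, in *mtgo*, was 19898 bp away with a signal of 26.2.

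**Figure D1:**
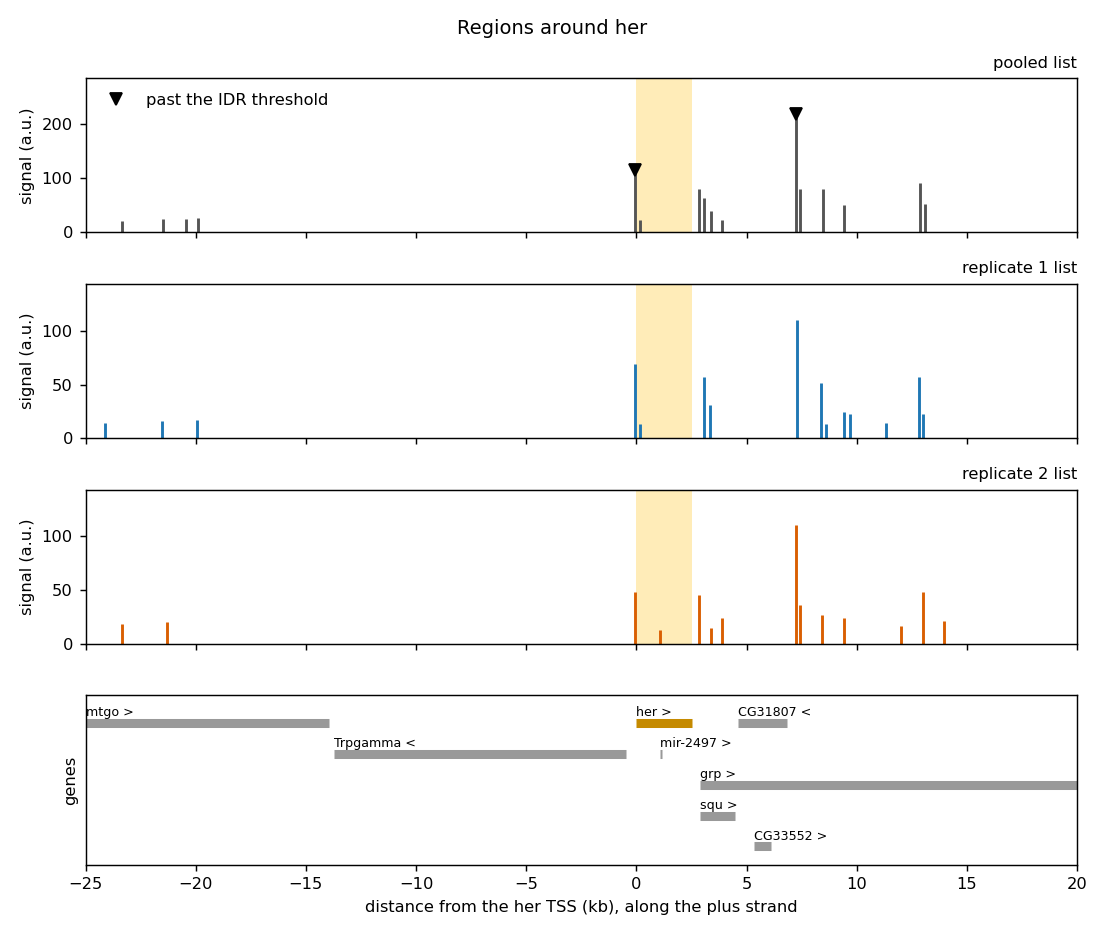
Regions around *her* by list, with the distance of each summit from the *her* TSS in kb on the x axis and the signal (a.u., authors' scale) on the y axes; each line is 1 region, triangles mark thresholded peaks, the shaded band is *her* and the lowest panel shows the genes with > or < for their strand. The pooled signal is 116 just before the TSS and reaches 219 in the *grp* intron, and in both replicates the same region is the tallest line.

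*Yp1* (FBgn0004045, X, 10053811 to 10055498, plus strand) and *Yp2* (FBgn0005391, X, 10050951 to 10052636, minus strand) had no region on them, between them or within 10 kb in the thresholded, pooled or replicate 2 lists. Replicate 1 listed 2 regions near the pair, at 10046848 with a signal of 23.3 (rank 13310) and at 10047081 with a signal of 15.0 (rank 24369). Both lay in an intron of *Cht6*, a chitinase gene, on the antisense RNA gene *asRNA:CR45185*, and the nearer was 3870 bp from *Yp2* and 6730 bp from *Yp1*. Their −log10 q-values were 1.40 and 0.494, where the *her* promoter had 3.98 in the same list. Neither had a counterpart in replicate 2 or in the pooled list.

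The pair sat in a long stretch without pooled summits, from 10026384 to 10067718, a gap of 41.3 kb. Between neighbouring pooled summits the median gap was 1263 bp, and 407 of 29994 gaps (1.36%) were at least as long. Long gaps hold many genes, and 2595 of 13858 protein-coding genes (18.7%) had their 5′ end in a gap of that length or more. The region that ended it, in an intron of *CG15312*, was thresholded, with a pooled signal of 95.1 at rank 3643. It had a signal of 64.4 in replicate 1 and 29.4 in replicate 2. It lay 12.2 kb from *Yp1* and 15.1 kb from *Yp2*, outside the window. On the other side the nearest region, in *Cht6*, ranked 24632 in the pooled list. A region that is not listed says only that it ranked under the 30000 listed ones, whose lowest pooled signal was 21.1.

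**Figure D2:**
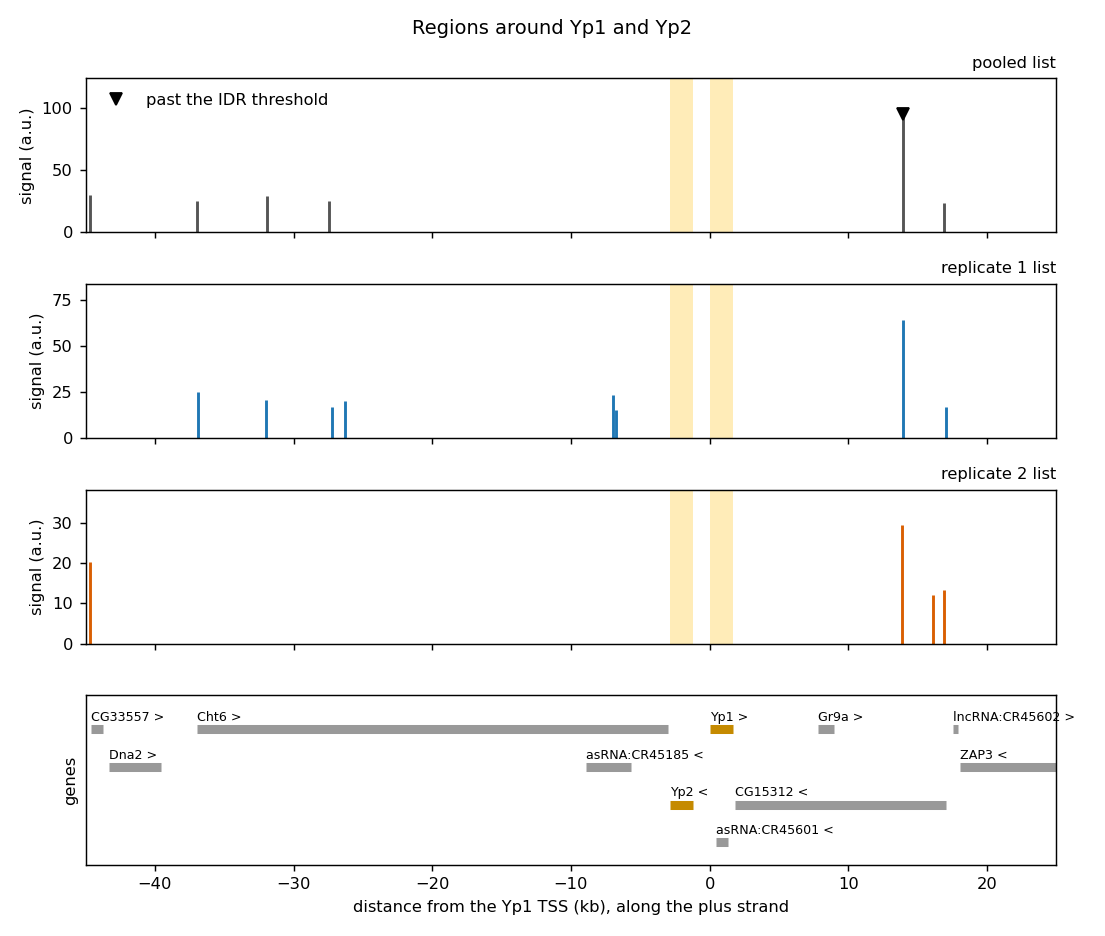
Regions around *Yp1* and *Yp2* by list, with the distance of each summit from the *Yp1* TSS in kb on the x axis and the signal (a.u., authors' scale) on the y axes; each line is 1 region, the triangle marks a thresholded peak and the shaded bands are the genes. The pooled panel is empty for 41.3 kb around the pair, and 2 replicate 1 regions of signal 23.3 and 15.0 are the only lines within 10 kb.

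*Yp3* (FBgn0004047, X, 13759546 to 13761547, plus strand) lies apart from the other yolk protein genes, between *Rtc1*, which encodes an RNA cyclase-like protein, and *rdgB* (retinal degeneration B), which encodes a phosphatidylinositol transfer protein. No pooled summit lay in the *Yp3* gene or within 1 kb of its TSS. The gap over the TSS ran for 4781 bp, and 48.3% of protein-coding genes had their 5′ end in a gap at least as long. Replicate 1 alone listed a region in a *Yp3* coding exon, at 13760868, 1322 bp after the TSS, with a signal of 18.8 at rank 18133.

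The 1 thresholded peak within 10 kb of *Yp3* lay 4164 bp before its TSS, at the start of another gene. Its summit, 13755382, was in the 5′ UTR of *Pdcd4*, the fly relative of a translation inhibitor, 24 bp after the *Pdcd4* TSS, and in an exon of the antisense RNA gene *asRNA:CR43833*. The pooled signal was 111 at rank 2886. Replicate 1 gave 46.2 at rank 4698, with the summit at 13755304, and replicate 2 gave 67.0 at rank 1902, with the summit at 13755392. In replicate 1 an overlapping second region was listed, with its summit at 13755507 and a signal of 23.2 at rank 13398. The ranks of the matched regions lay farther apart here than at the peak in *grp*, and their summits were 88 bp apart. Replicate 1 ranked its matched region under its 3930 strongest. A list of that length from replicate 1 alone held no region near any yolk protein gene, while one from replicate 2 alone held 1.

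The other 9 pooled regions near *Yp3* did not pass the threshold. Upstream, 4 regions lay in introns of *Pdcd4*, with pooled signals of 60.0, 23.6, 56.2 and 75.2 from the farthest to the nearest, and 1 lay 31 bp before the TSS of *Rtc1*, with a pooled signal of 43.2. In replicate 1 the *Rtc1* region had 14.2 and in replicate 2 it had 28.9. Downstream, a region 382 bp past the end of *Yp3* had a pooled signal of 54.6, with 16.2 in replicate 1 and 36.8 in replicate 2. This was the pooled region closest to *Yp3*, and its nearest TSS was that of *rdgB*, 823 bp on. The next, at 13762134, had 29.2 and was found in replicate 2 only, at 31.4. The region at the start of *rdgB*, 48 bp after its TSS, had 63.8, with 41.8 in replicate 1 and 37.6 in replicate 2. A last one, in an *rdgB* intron, had 27.5 and was found in replicate 1 only, at 20.1.

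All 10 pooled regions near *Yp3* thus had their nearest TSS in another gene, 6 upstream and 4 downstream of the *Yp3* TSS. Their signals ran from 23.6 to 111 with a median of 55.4. Replicate 1 listed 15 regions in the window and replicate 2 listed 10. At the edge, the region 9490 bp away was the last inside on the *Pdcd4* side, and one 10043 bp away with a signal of 26.0 was just outside. On the *rdgB* side the last inside was 3258 bp away and the next was 18295 bp away, near *CtsB*, with a signal of 49.5.

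**Figure D3:**
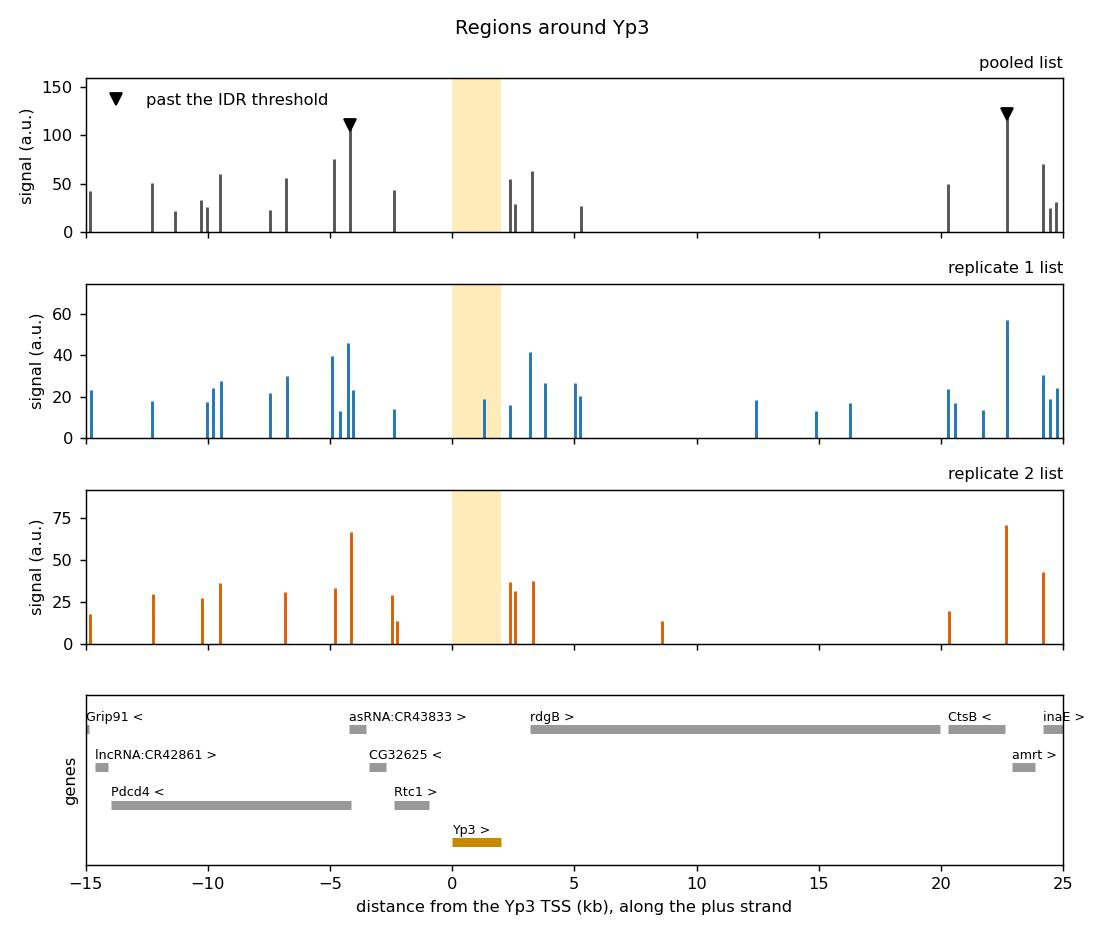
Regions around *Yp3* by list, with the distance of each summit from the *Yp3* TSS in kb on the x axis and the signal (a.u., authors' scale) on the y axes; each line is 1 region, triangles mark thresholded peaks and the shaded band is *Yp3*. The pooled lines stand on both sides of the gene, with 111 at the start of *Pdcd4* and 63.8 at that of *rdgB*, and the gene itself holds a single replicate 1 region of signal 18.8.

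By number of pooled regions the 4 genes fell into pairs. *her* and *Yp3* each had 10, a count that 41.7% of protein-coding genes reached, and *Yp1* and *Yp2* had 0, like 1968 genes. Over all protein-coding genes the median was 8, with quartiles at 3 and 13. Of the 20 pooled regions near the members, 18 had their nearest TSS in a gene that is no member. In an intron of some gene lay 10, and 5 lay between genes. The 10 include those at 16680550 and 16681084, which also lie in the 5′ UTR and a coding exon of *squ*. The shares of all pooled regions in such places were not computed. Within 500 bp of some TSS lay 7 of the 10 near *her* and 3 of the 10 near *Yp3*, against 36.6% of all pooled regions.

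**Figure D4:**
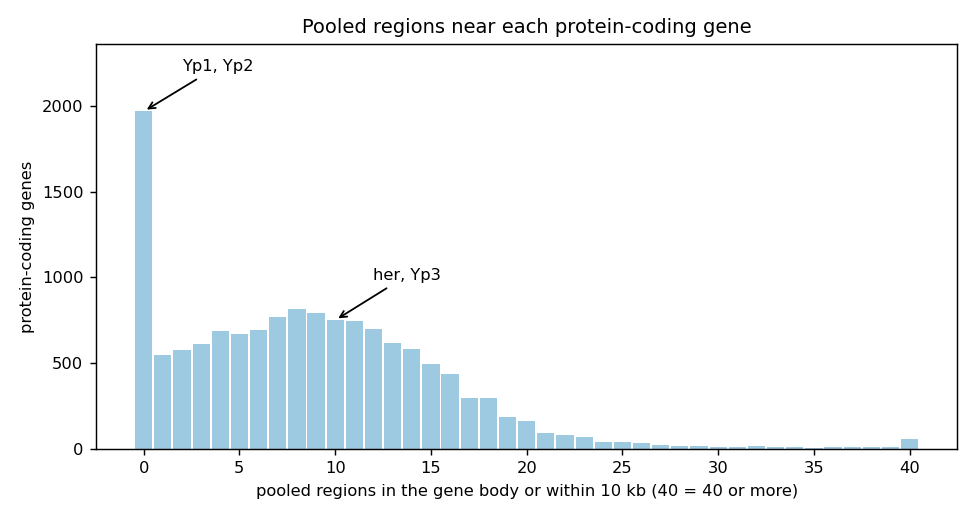
Number of protein-coding genes (y axis) by how many pooled regions lie in the gene or within 10 kb of it (x axis, with 40 or more in the last bar). *Yp1* and *Yp2* are in the bar at 0, which holds 1968 genes, and *her* and *Yp3* in the bar at 10, above the median of 8.

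Both replicates listed a summit within 200 bp for 14 of the 20 pooled regions near the members (70.0%), 7 near *her* and 7 near *Yp3*, against 56.2% of all pooled regions and 99.6% of thresholded peaks. By rank, which can be set side by side between lists of the same length, the *grp* intron peak stood at 973 in replicate 1 and 753 in replicate 2. The *her* promoter stood higher in replicate 1, at 2408 against 3410, and the *Pdcd4* peak higher in replicate 2, at 1902 against 4698. Wider differences occurred among regions under the threshold. The region past *Yp3* had rank 22186 in replicate 1 and 5236 in replicate 2, and that at the second *squ* TSS had 8760 and 23493. The 14 include 2 regions near *her*, at 16677341 and 16684609, that were matched in 1 replicate to the summit of the stronger peak beside them. With each replicate region used once, 12 of the 20 were matched. Ranks from 2 replicates carry no error estimate.

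**Figure D5:**
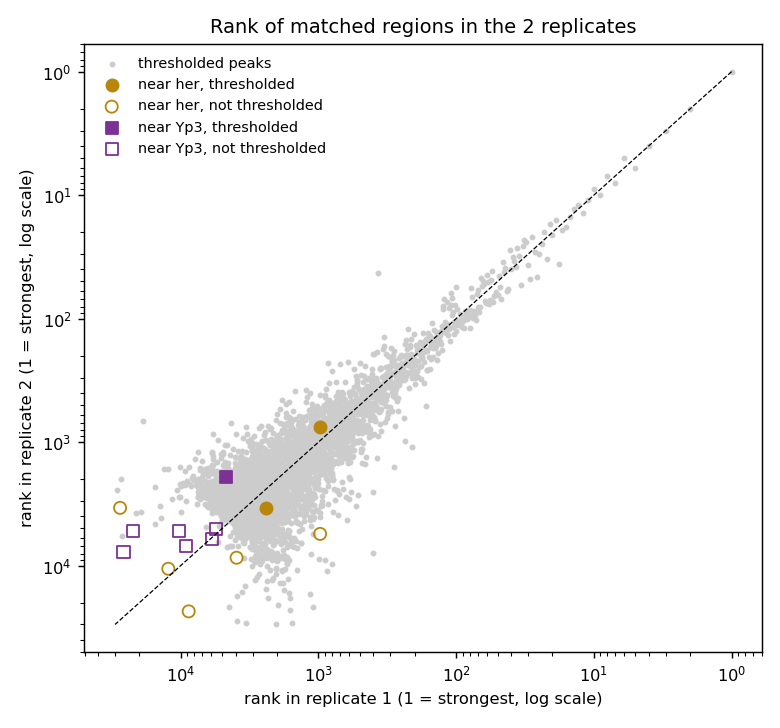
Rank in replicate 2 (y axis) against rank in replicate 1 (x axis), both on log scales with the strongest region at the upper right, for thresholded peaks found in both replicates (grey) and for matched pooled regions near *her* (circles) and *Yp3* (squares), filled where thresholded; the dashed line marks equal rank. The *grp* intron peak, at 973 and 753, is close to the line, the *her* promoter, at 2408 and 3410, is under it, and the *Pdcd4* peak, at 4698 and 1902, is over it.

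The genes whose promoter peak was most like that of *her*, by the summed absolute log2 differences in signal over the pooled, replicate 1 and replicate 2 lists, were *Trpgamma*, *Vang*, *CG5001*, *Mec2* and *Papst2*. *Trpgamma* shares the peak, so its difference was 0. *Vang*, a planar cell polarity gene, followed with 0.051 and signals of 113.6 pooled, 68.3 in replicate 1 and 47.7 in replicate 2. *CG5001* had 117.5, 70.1 and 48.0 in the same order. *Mec2* had 114.2, 67.7 and 48.5. *Papst2*, which encodes a nucleotide-sulfate transporter, had 117.0, 67.4 and 49.2 and a summed difference of 0.084. The likeness is one of signal alone, over 3 values from 2 replicates.

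The members were set among 3 lists of genes put together by name, and the role of each listed gene was not tested here. Of 15 genes listed as regulators of the yolk protein genes, 8 had a thresholded peak no more than 1 kb from a TSS. Of all protein-coding genes, 23.3% did. Within 10 kb, 13 of the 15 had one, where 59.5% of all genes did. The 8 include *fru*, given below only as a gene of male courtship. The list had a median of 16 pooled regions within 10 kb, against 8 over all genes. These rules span the whole gene body and every TSS, so long genes with many TSSs can hold more. Gene length and number of TSSs were not accounted for in any of the 3 lists. The *dsx* gene itself had no thresholded peak that close to a TSS, nor did *tra*, *tra2*, *slbo*, *CrebA*, *srp* or *Met*. The strongest of the 8 was at *ix* (intersex), the Mediator subunit that acts with the female Doublesex protein, with a pooled signal of 327, 153 in replicate 1 and 173 in replicate 2. At *Sxl*, the splicing switch at the head of the pathway, the signals were 185, 90.2 and 92.5 in that order. At *usp*, the partner of the ecdysone receptor, they were 171, 92.4 and 83.6. In all 3, and also at *gce* and *fru*, both replicate signals were above those at the *her* promoter. At *gce*, a juvenile hormone receptor gene, the signals were 161, 91.3 and 70.6, with the summit 618 bp from its TSS and 167 bp from that of *asRNA:CR44429*. At *fru*, which encodes a transcription factor of male courtship, they were 147, 87.6 and 60.5, with the summit 731 bp from a TSS.

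The remaining 3 of the 8 were nearer to the *her* promoter in height. *Aef1*, which encodes a repressor that binds the fat body enhancer, had a pooled signal of 125, with 65.3 in replicate 1 and 59.7 in replicate 2, and its summit lay 173 bp from the TSS of *barc*. *Kr-h1*, a target of juvenile hormone signalling, had 111, 64.9 and 43.0, with the summit 118 bp from its TSS and equally far from that of *CG45075*. *EcR*, the ecdysone receptor gene, had 107, 52.7 and 50.2. The summit lay 927 bp from a TSS of *EcR* and nearer, at 541 bp, to that of *lncRNA:CR43904*.

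Of 7 genes of yolk uptake and lipoprotein assembly, 3 had a thresholded peak at most 1 kb from a TSS (23.3% of all protein-coding genes) and 6 within 10 kb (59.5%). Their median was 4 pooled regions, against 8 over all genes. *Mtp*, which loads lipid onto lipoproteins, had a pooled signal of 215, with 96.7 in replicate 1 and 121 in replicate 2. *Apoltp*, a lipid transfer particle gene, had 122, 65.9 and 51.8, with the summit 836 bp from its TSS. *boca*, a chaperone gene for receptors of the yolk receptor's family, had 98.7, 53.5 and 47.5, with the summit 17 bp from the TSS of *Vps13*. The yolk receptor gene *yl* had 4 pooled regions within 10 kb and none within 1 kb of its TSS, and *apolpp*, *LpR1* and *LpR2* also had no thresholded summit there. Of 16 vitelline membrane and chorion genes, which the follicle cells also express, 0 had a thresholded peak at most 1 kb from a TSS, where 23.3% of all protein-coding genes did, and 2, *Vm26Ab* and *Vm32E*, had a pooled one, where 62.1% did. Within 10 kb, 9 of the 16 had a thresholded summit (59.5% of all genes) and 15 a pooled region (85.9%), shares near those of all genes. The median was 3.5 pooled regions, against 8 over all genes, and *Cp7Fc* had 0. *Yp1*, *Yp2* and *Yp3* had no pooled summit within 1 kb of a TSS either. Some eggshell genes lie in clusters and share regions, and no test was made over the lists.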

How the data were processed

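ChIP-seq regions from 2 biological replicates of 1 group (embryos with GFP-tagged Her, antibody against GFP, chromatin sonicated to 200 to 800 bp, per the labels) were used as deposited, on dm6. Per the deposited notes, the authors called regions for each replicate and on the pooled data against a control that both replicates share. They then kept the peaks past the IDR threshold. The sources used here do not give the aligner, the peak caller or the read depth. Each list gives the authors' signal per region, on a scale not stated, the deposited −log10 q-value and the summit. The signal served for description and for ranks inside each list. Lists on dm3 were not used, and 0 columns of per-sample values were set aside.

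Genes and TSSs came from the Ensembl annotation, release 115, without transposable elements, and sequence from the RefSeq genome, Release 6. Both are dm6. A region was assigned to a gene when its summit lay in the gene body or within 10 kb, and pooled regions were matched to a replicate by summits within 200 bp. Gene lists were counted at 1 kb from a TSS. The share of all 13945 protein-coding genes that met each rule stands beside the members' count. Counting was checked on simulated summits planted within 10 kb of 150 genes, and all planted summits of 150 of these genes were recovered. With 1 group and no contrast, no test was made.

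The genes named were the members, the gene nearest to each region, list members with a thresholded peak at most 1 kb from a TSS and the 5 genes with the promoter peak most like that of *her*. Further genes of the loci and lists were named after their values were seen. The members, lists and words were chosen with earlier results of these data known, and ATCGAT after its sequence was seen. Alternatives changed the window (2, 5 and 20 kb), the overlap rule, the list depth and the matching distance, or used the regions of 1 replicate alone. Python 3.11.15, numpy 2.4.6 and matplotlib 3.10.9 were used.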

Additional observations from a re-analysis of the deposited data

How the results depend on the processing

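Of 50 alternatives, 36 left the count or share within 1.5 times its reported value. Thresholded peaks near *her* went from 2 to 1 within 2 kb and to 1 among the 1965 strongest peaks, and were 3 to 3 when either replicate was left out. Near the yolk protein genes the 1 thresholded peak became 0 within 2 kb, 4 within 20 kb and 0 among the 1965 strongest, and 0 to 1 when a replicate was left out (0 without replicate 2). Pooled regions near *her* went from 10 to 6 within 2 kb and to 6 among the 7860 strongest. With overlapping regions counted as 1 stretch they also went to 6. The list of either replicate alone held 10 regions near *her*. Near the yolk protein genes the pooled regions went from 10 to 3 within 2 kb, 23 within 20 kb and 4 among the 7860 strongest. The replicate 1 list held 17 regions near these genes and the replicate 2 list held 10. The share of all genes with a thresholded peak fell from 59.5% to 33.8% within 2 kb. Narrower windows and shorter lists hold fewer regions by construction. Matches in both replicates ranged from 12 to 17 of 20. Counting by stretches and using each replicate region once were chosen after seeing the data. No paired analysis was possible because the samples form 1 group. Without read depth or an untagged sample, a region that is not listed cannot be read as absence of the protein, and the weakest listed regions cannot be told from background.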
